A study of Mus musculus with 11 samples.

Results

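The potassium channel genes described here were those whose mouse symbol starts with Kcn and whose probe gave a signal well above background on 5 arrays or more, out of 11, with the brightest probe standing for each gene. Of 94 genes with such a symbol on the array, 87 passed, among 17188 genes tested in all. RNA had been taken from the hypothalamus of male C57BL/6N offspring at postnatal day 21. Offspring of dams on standard chow formed the CO group (n = 5) and offspring of dams kept on a high-fat diet before conception and through gestation and lactation formed the HFD group (n = 6). The diet was the dam's, and the methods allowed up to 2 offspring of a dam. The titles of 3 CO samples share one leading number and those of the other 2 CO samples another, and what that number stands for, or whether RNA was pooled, is not stated. With that number as a random block in CO, and each HFD sample as a block of its own, 18 members were higher and 41 lower, as without it. Since no HFD samples were grouped, that fit cannot show whether shared dams matter. The p-values reflect only how far these samples spread, which may be technical in part. The CO arrays were scanned 337 days before the HFD arrays, on slides of their own and with another image-analysis protocol, so that group and scan session cannot be told apart in any value below.

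Potassium channels let potassium leave or enter a cell and so set the resting potential, the shape of the action potential and the rate of firing. Most pores are built from 4 subunits, or from a pair in the 2-pore-domain family, and auxiliary subunits change how the pore opens or where it sits. In the hypothalamus, the ATP-sensitive channel, with the pore subunit Kcnj11 and the sulfonylurea receptor Abcc8, is known for coupling glucose and hormone signals to firing, and GIRK channels carry inhibition through G protein-coupled receptors.

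Of the 87 members, 18 were higher and 41 were lower in HFD than in CO offspring, and 28 did not pass the test (limma, adjusted p under 0.05 over all genes tested). The members called made up 67.8%, against 66.4% of all genes tested. Higher calls made up 20.7% of members against 21.9% of all genes, and lower calls 47.1% against 44.5%. The median log2 difference, HFD minus CO, was -0.27 over members and -0.18 over all genes, with members measured in both groups ranging from -1.74 (Kcnh3) to 2.91 (Kcnq1ot1). In 13 members (14.9%, against 16% of all genes) the lowest HFD sample exceeded the highest CO sample, and in 22 (25.3%, against 30.9%) the highest HFD sample lay below the lowest CO sample. A called difference of at least 2-fold was found in 2 members that were higher (5.54% of all genes) and in 12 that were lower (10.1% of all genes). The counts of lower members include Kcnmb4os1, which passed the filter only through CO. Among the 82 members well above background on all arrays, 10 were lower by at least 2-fold and 21 lay below without overlap. The counts of calls thus lay close to those over all genes, and what follows describes which members they were. Direction went with the length of the gene, among members as over all genes. Of the 29 members with the longest spans, 11 were higher and 11 lower, against 3 and 15 of the 29 shortest. Over all genes of like length the counts were 1364 and 1049 of 3626, against 834 and 3782 of 6985. The part of length in single differences was not tested. Counts for families and gene lists below are to be read beside the same 21.9% higher and 44.5% lower. HFD replicate 1 stood apart from the other HFD samples on several lists of regional markers, given with those lists. Without it, 18 members were higher and 42 lower.

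The direction depended on how arrays were scaled. Relative to the spike-in control probes in place of the 75th percentile, the median of all genes moved by 0.676 on the log2 scale to -0.85, 2 members were higher (2.3%, against 5.48% of all genes) and 74 lower (85.1%, against 83.9%), and higher calls fell from 30.5% to 2.63% of all member calls. Only Kcnq1ot1 and Kcnma1 were still called higher on that scale. All levels below are log2 signals relative to the 75th percentile of each array, so that 0 is that percentile, and all differences are relative to it.

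**Figure D1:**
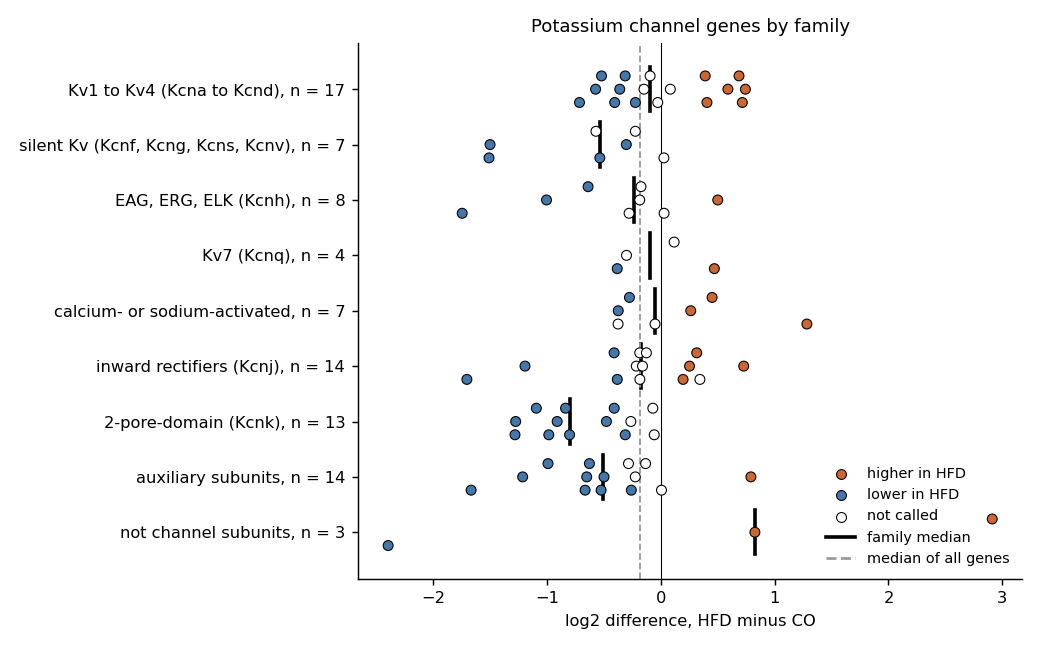
Each point is 1 of the 87 members, placed by its log2 difference, HFD minus CO, in the row of its family, and coloured by its call. Black bars mark family medians and the dashed line the median of all genes at -0.18; no 2-pore-domain and no silent Kv member was called higher, the leftmost point (Kcnmb4os1) has only a bound, and with spike-in scaling points would shift left by 0.676.

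The 4 promoter windows that follow were chosen by the rule given next. Among the called members described in full with a single window in the table, placed before the outermost annotated start of the gene, Kcnq1ot1 and Kcnh8 had the largest increases and Kcns1 and Kcnk15 the largest decreases. Each is the 250 bases before that start, read 5′ to 3′ on the gene's strand from RefSeq (GRCm38.p6), with GGGCGG on either strand in capitals.
Kcnq1ot1 (chr7:143296548-143296797, minus strand): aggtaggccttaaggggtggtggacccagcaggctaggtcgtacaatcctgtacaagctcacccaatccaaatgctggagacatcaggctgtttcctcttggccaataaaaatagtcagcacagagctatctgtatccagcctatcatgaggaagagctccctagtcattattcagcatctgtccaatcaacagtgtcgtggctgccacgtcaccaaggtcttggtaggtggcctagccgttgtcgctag
Kcnh8 (chr17:52602459-52602708, plus strand): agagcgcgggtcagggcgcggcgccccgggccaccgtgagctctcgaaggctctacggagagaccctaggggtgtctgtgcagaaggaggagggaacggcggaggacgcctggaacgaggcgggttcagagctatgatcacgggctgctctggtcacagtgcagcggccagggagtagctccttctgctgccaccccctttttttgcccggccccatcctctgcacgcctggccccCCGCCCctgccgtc
Kcns1 (chr2:164171114-164171363, minus strand): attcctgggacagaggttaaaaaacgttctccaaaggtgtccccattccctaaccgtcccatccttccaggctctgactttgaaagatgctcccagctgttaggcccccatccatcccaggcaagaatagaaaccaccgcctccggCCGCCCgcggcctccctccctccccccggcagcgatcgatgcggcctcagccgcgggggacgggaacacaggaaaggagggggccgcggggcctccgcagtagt
Kcnk15 (chr2:163853500-163853749, plus strand): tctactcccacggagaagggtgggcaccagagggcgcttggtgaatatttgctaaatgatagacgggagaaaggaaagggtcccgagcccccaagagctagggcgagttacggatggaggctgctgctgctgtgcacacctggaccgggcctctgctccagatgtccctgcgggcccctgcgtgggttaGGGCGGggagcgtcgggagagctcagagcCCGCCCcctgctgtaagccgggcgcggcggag

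GGGCGG, the GC box read by Sp1-type factors, was found once in the Kcnh8 window, once in that of Kcns1, 2 times in that of Kcnk15 and not in that of Kcnq1ot1. The Kcnq1ot1 window lies within the annotated span of Kcnq1, and those of Kcnh8 and Kcns1 overlap the spans of the noncoding genes Gm27217 and LOC115486434. GC content was 51.2% for Kcnq1ot1, 68.4% for Kcnh8, 63.2% for Kcns1 and 65.2% for Kcnk15. The promoter table held 89 windows for 65 of the 87 members, 37 of them before the outermost start of the gene and the rest before other starts. GGGCGG was present in 8 of 24 windows of members called higher (33.3%), in 19 of 40 windows of members called lower (47.5%) and in 13 of 25 windows of members not called (52%), against 32.7% of 32851 windows in all. TATAAA on either strand was present in 3 of the 89 windows (3.37%, against 12.4% of all windows), and the cyclic AMP response element TGACGTCA in none, against 1.55% of all windows. Matches of one motif can share letters with each other, and a match describes these letters only.

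Among the Kv1 to Kv4 genes, which encode the voltage-gated pores of delayed-rectifier and A-type currents, 6 of 17 were higher and 7 were lower (median difference -0.09). Of the Kv1 genes, Kcna1, Kcna2 and Kcna3 were higher, Kcna4, Kcna6, Kcna7 and Kcna10 were lower, and Kcna5 was not called. Kcna10 was well above background on all CO arrays but on only 2 of 6 HFD arrays, so the filter favours its direction. The second, dimmer probe of Kcna5 was lower by 1.04 (SE 0.19, limma adjusted p = 0.000534) without overlap. Kcna1 and Kcna2 form the low-threshold channels of the axon. The log2 signal of Kcna2 was -0.53, -0.81, -0.39, -0.07 and -0.58 in the CO samples and 0.00 to 0.70 in the HFD samples (median 0.16). The groups did not overlap, although the lowest HFD sample lay close to the highest CO sample, and the difference was 0.72 (SE 0.14, limma adjusted p = 0.00104), but 0.04 and not called with spike-in scaling. Kcna1 was 2.53, 2.79, 2.69, 2.95 and 2.95 in CO and 2.98 to 3.32 in HFD (median 3.19), a difference of 0.39 (SE 0.09, limma adjusted p = 0.00276) that turned to -0.29 with spike-in scaling. The call of Kcna1 was also lost after normexp, a model-based background correction (0.19, adjusted p = 0.191), and with the striatal marker list described below as a covariate (0.31, adjusted p = 0.0681).

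Kcnc2, which encodes a fast-deactivating Kv3 channel of rapidly firing neurons, stood at 0.86, 0.90, 1.04, 1.08 and 0.76 in CO and at 1.49 to 1.84 in HFD (median 1.69), 1.67-fold higher (difference 0.74, SE 0.08, limma adjusted p = 1.78e-05). The groups did not overlap, and with spike-in scaling the difference was 0.07 and was not called. Kcnc1, Kcnc4 and the Kv2 gene Kcnb2 were not called. Of the dimmer probes of Kcnc1, one was lower by 0.38 (SE 0.09, limma adjusted p = 0.00343) and another was not called (0.12).

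The 3 Kv4 genes, the pores of the somatodendritic A-type current, did not move together. Kcnd2 was higher, with a difference of 0.41 (SE 0.09, limma adjusted p = 0.00234) that became -0.27 with spike-in scaling and was not called with the striatal covariate (0.33, adjusted p = 0.0567). It ranged from 1.69 to 2.07 in CO and from 2.06 to 2.46 in HFD, so that the groups met at their edges. Kcnd1 was lower: the CO samples were at -1.72, -1.08, -1.52, -1.27 and -0.99 and the HFD samples at -2.31 to -1.89 (median -2.02), without overlap, a difference of -0.71 (SE 0.13, limma adjusted p = 0.00056). Kcnd3 was lower by a smaller margin (difference -0.31, SE 0.09, limma adjusted p = 0.0118), with overlap between the groups, and the call was lost with quantile normalization (-0.25), with scaling to the median (-0.24), after normexp (-0.18) and with its probes averaged (-0.10).

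The partners of Kv4 also went both ways. KChIPs (Kcnip) are calcium-binding proteins that bring Kv4 channels to the membrane and slow their inactivation, and of 4 measured, 1 was higher, 2 were lower and 1 was not called. Kcnip4 was 1.61, 1.29, 1.79, 1.87 and 1.29 in CO and 2.19 to 2.58 in HFD (median 2.36), 1.73-fold higher (difference 0.79, SE 0.12, limma adjusted p = 0.00016), and its second probe was higher too (0.59), but with spike-in scaling the difference was 0.12 and was not called. Kcnip2 was -0.61, -0.57, -1.24, -1.72 and -0.54 in CO and -3.60 to -2.13 in HFD (median -2.45), 3.17-fold lower (difference -1.67, SE 0.28, limma adjusted p = 0.000307). Both genes kept the groups apart, Kcnip2 with the wider spread (SD 0.53 in CO and 0.51 in HFD). Kcnip3, also known as the transcriptional repressor DREAM, was lower by 0.52 on both a narrow CO range, 3.92 to 4.17, and a narrow HFD range, 3.41 to 3.75 (limma adjusted p = 8.46e-05). Kcnip1 was not called (difference -0.13, SE 0.07), although it passed as lower without HFD replicate 1 (-0.17). The dipeptidyl-peptidase-like partners differed likewise, with Dpp10 higher (difference 0.79, SE 0.13) and Dpp6 lower (-0.33, SE 0.07).

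**Figure D2:**
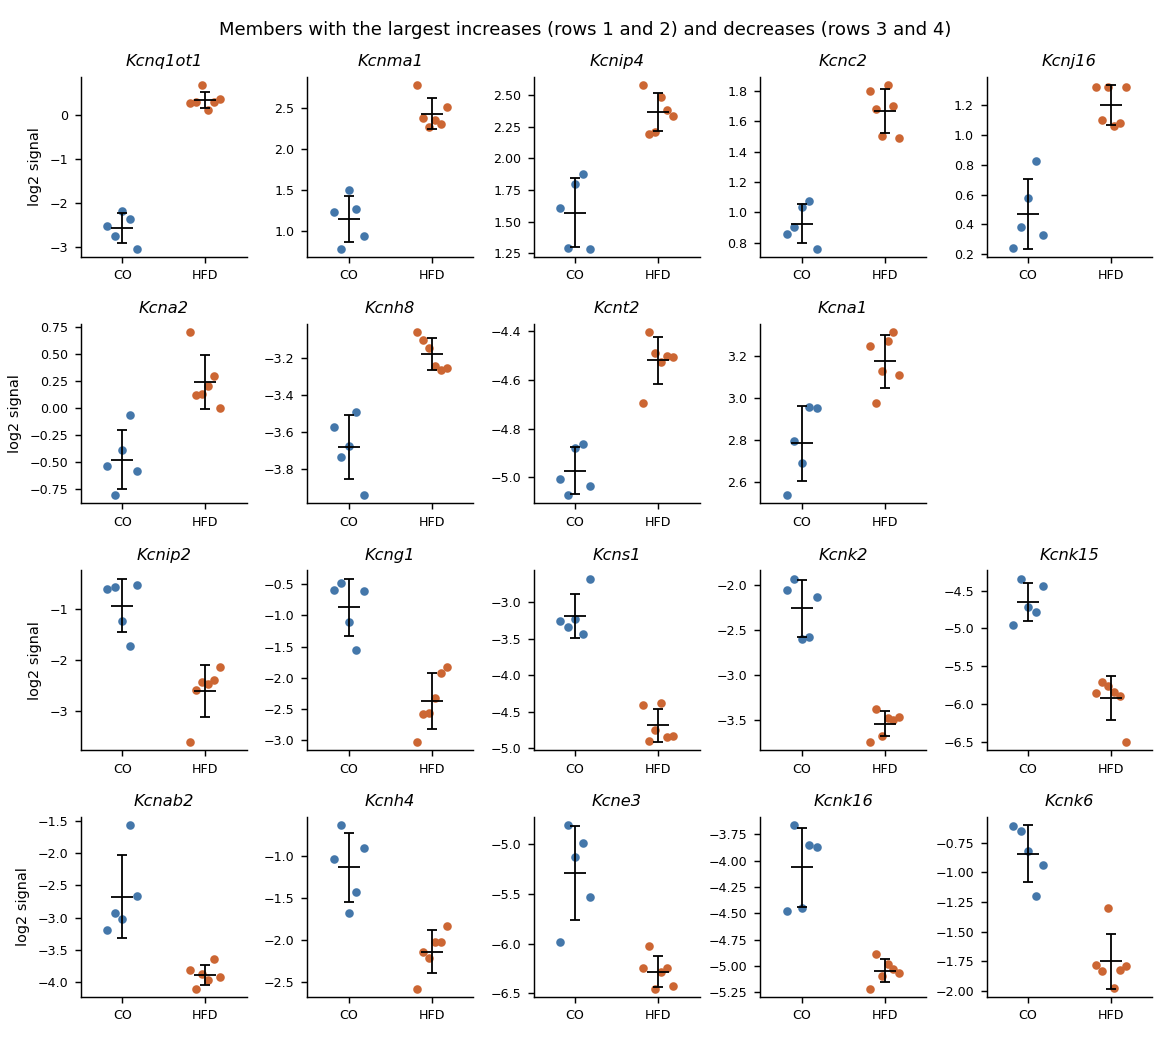
Log2 signal of 9 of the members with the largest increases and of the 10 with the largest decreases among called members measured on all arrays whose groups did not overlap. Points are single samples in CO (n = 5) and HFD (n = 6), bars give the mean ± SD, and each panel has its own vertical axis; with spike-in scaling Kcnh8, Kcnt2 and Kcna1 turned to lower in HFD.

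Silent Kv subunits make no channel alone and change the behaviour of Kv2 channels. Of 7, none was higher (against 21.9% of all genes), 4 were lower (57.1%, against 44.5% of all genes) and 3 were not called (median difference -0.54). After normexp none was higher and 2 were lower (median difference -0.37), against 17% and 24% of all genes. Kcns1 was -3.26, -3.34, -3.23, -3.44 and -2.68 in CO and -4.90 to -4.39 in HFD (median -4.79), 2.83-fold lower (difference -1.499, SE 0.15, limma adjusted p = 5.9e-06). Kcng1 was -0.59, -0.47, -1.10, -1.56 and -0.61 in CO and -3.03 to -1.82 in HFD (median -2.44), 2.85-fold lower (difference -1.51, SE 0.25, limma adjusted p = 0.000247). In neither did the groups overlap, and Kcng1 had the wider spread. Kcng4 and Kcns3 were also lower, and Kcnf1, Kcns2 and Kcnv1 were not called. For Kcnf1, 1 CO spot was marked as an outlier and left out, so its fit rests on 10 samples.

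In the Kcnh family of EAG, ERG and ELK channels, 1 of 8 was higher, 3 were lower and 4 were not called. The ELK members went both ways. Kcnh8 was higher (difference 0.50, SE 0.08, limma adjusted p = 0.000226), from a CO range of -3.94 to -3.49 to an HFD range of -3.27 to -3.06, but -0.18 with spike-in scaling, and its second probe gave -0.15 and was not called, nor was the mean of both (0.08). Kcnh4 was -1.04, -0.63, -1.67, -1.42 and -0.90 in CO and -2.58 to -1.84 in HFD (median -2.08), 2.00-fold lower without overlap (difference -1.003, SE 0.18, limma adjusted p = 0.000548). Kcnh3, singled out after its values were seen, was lower (difference -1.74, SE 0.38) with an SD of 0.70 in either group, and the groups overlapped. Kcnh1 was lower, and Kcnh2, Kcnh5, Kcnh6 and Kcnh7 were not called.

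Kcnq genes encode the Kv7 channels of the M-current, which brakes repetitive firing. Kcnq3 was -3.77 to -3.42 in CO and -3.60 to -3.25 in HFD, with wide overlap, and was not called (difference 0.12, SE 0.08, limma adjusted p = 0.235). Kcnq5 was called in opposite directions by its 2 probes, 0.47 (SE 0.12) on the brighter and -0.90 (SE 0.26) on the dimmer, so that it has no settled direction; among all genes with at least 2 called probes, 15.2% had such a conflict. Kcnq1, best known from heart and epithelia, was lower by 0.38 (limma adjusted p = 0.0048), a call lost with quantile normalization (-0.18) and after normexp (-0.10).

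Calcium- and sodium-activated channels link firing to the ions that enter with it. Of 7 genes put in this group by symbol (Kcnma, Kcnn, Kcnt and Kcnu), 3 were higher, 2 were lower and 2 were not called. Kcnma1, the pore of the large-conductance BK channel, was 1.24, 0.79, 1.50, 1.28 and 0.94 in CO and 2.27 to 2.78 in HFD (median 2.37). All HFD samples lay above all CO samples, 2.43-fold higher (difference 1.28, SE 0.13, limma adjusted p = 8.82e-06), and the second probe gave 0.80 (SE 0.13). The difference was 0.61 with spike-in scaling and stayed past the threshold. Kcnt2, a sodium-activated channel, was -5.07 to -4.86 in CO and -4.69 to -4.40 in HFD (difference 0.45, SE 0.07, limma adjusted p = 9.88e-05), and turned to -0.23 with spike-in scaling. After normexp it was not called (0.53, adjusted p = 0.0701). Kcnu1, in the group by its symbol only and not for activation by calcium or sodium, was higher. Kcnn2 and Kcnt1 were lower, and Kcnn3 and Kcnn4 were not called.

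The BK beta subunits, which set calcium sensitivity and inactivation of that pore, were lower in all 3 genes measured, against 44.5% of all genes. Kcnmb4, the beta subunit of neurons, was 2.90, 2.90, 2.85, 2.63 and 3.11 in CO and 2.26 to 2.47 in HFD (median 2.42), without overlap. The difference was -0.50 (SE 0.08, limma adjusted p = 0.000246), and the second probe was lower as well (-0.81, SE 0.12). Kcnmb2 was lower by 0.66 without overlap (limma adjusted p = 6.91e-05), but its second probe gave 0.26 and was not called, nor was the mean of both (-0.20). Kcnmb1, the subunit of smooth muscle, was lower by 0.65 with overlap (limma adjusted p = 0.00498), and its call was lost with quantile normalization (-0.25). After a normexp background correction only Kcnmb4 of the 3 was called (-0.73), with -0.16 for Kcnmb2 and -0.07 for Kcnmb1. The gamma subunit Lrrc26 was not well above background on any HFD array, so it passed the filter only through CO. It was at least 2.62-fold lower, which is a bound and a description only, since the filter favours such a probe.

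Inward rectifiers (Kcnj) pass potassium near the resting potential, and of 14 measured, 4 were higher, 4 were lower and 6 were not called (median difference -0.17). Of the GIRK subunits, Kcnj3 (difference 0.32, SE 0.07), Kcnj5 (0.25, SE 0.08) and Kcnj6 (0.20, SE 0.08) were higher and Kcnj9 was not called (-0.22, SE 0.11), but with spike-in scaling all 4 were lower, at -0.36, -0.42, -0.48 and -0.89. Kcnj3 was -3.82, -3.81, -3.73, -3.47 and -3.61 in CO and -3.44 to -3.32 in HFD (median -3.36). Its groups were separated by a narrow gap, and its second probe was higher by 0.81 (SE 0.09). The call of Kcnj6 was lost when CO replicate 1, 2 or 4 or HFD replicate 3 or 5 was left out (0.15 to 0.20), after normexp (0.21) and with array weights (0.19). Kcnj9 passed as lower without HFD replicate 1 (-0.30) and with array weights (-0.32).

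Of the ATP-sensitive channel, the neuronal pore Kcnj11 was -1.88, -2.03, -2.07, -1.91 and -1.84 in CO and -2.44 to -2.13 in HFD (median -2.41). The groups did not overlap, and Kcnj11 was 1.33-fold lower (difference -0.41, SE 0.07, limma adjusted p = 0.000411), with a second probe at -0.75 (SE 0.23). Its receptor Abcc8 was lower by 0.23 (SE 0.06, limma adjusted p = 0.0042). The vascular pore Kcnj8 was not called (difference -0.18, SE 0.08, limma adjusted p = 0.0626). It passed as lower with slide as a random block (-0.19, limma adjusted p = 0.038), without CO replicate 1 (-0.25, limma adjusted p = 0.0109) and with spike-in scaling (-0.86). The slide fit, with each slide inside 1 group, had a correlation within slides of -0.06 and called 69.5% of all genes, against 66.4% without it. Abcc9, the receptor of Kcnj8, was higher by 0.40 (SE 0.10, limma adjusted p = 0.00524).

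The glial inward rectifiers differed from each other. Kcnj10, the main channel for potassium uptake by astrocytes, was 4.81 to 5.21 in CO and 4.75 to 5.00 in HFD, and was not called (difference -0.13, SE 0.08, limma adjusted p = 0.158). It passed as lower after normexp (-0.25, adjusted p = 0.028), with the striatal covariate (-0.29, adjusted p = 0.0145) and with spike-in scaling (-0.80). Kcnj16, which joins Kcnj10 in mixed channels, was 0.24, 0.38, 0.57, 0.82 and 0.33 in CO and 1.06 to 1.32 in HFD (median 1.21), 1.66-fold higher (difference 0.73, SE 0.11, limma adjusted p = 0.000109). With spike-in scaling the difference of Kcnj16 was 0.05 and was not called. Astrocyte markers were higher in 2, lower in 2 and not called in 6 of 10 genes. Kcnj4, Kcnj14 and Kcnj15 were lower, and Kcnj2, Kcnj12 and Kcnj13 were not called. The second probe of Kcnj13 was higher by 1.09 (SE 0.28, limma adjusted p = 0.00436), with overlap.

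The 2-pore-domain channels (Kcnk) carry the leak current that holds neurons and glia near rest. Of 13, none was higher, 10 were lower (76.9%, against the 44.5% of all genes) and 3 were not called, with a median difference of -0.80. Members were also sorted by signal into 3 sets of 29. The dimmest set held 5 of the 13, the middle set 6 and the brightest set 2. Among all genes of like signal, 2678 of 4962, 1765 of 4464 and 3213 of 7762 were lower, in that order. Their median differences were -0.50, -0.11 and -0.11. The part of signal in the differences of this family was not tested. Kcnk2, the mechanosensitive channel TREK-1, was -2.06, -1.93, -2.61, -2.58 and -2.13 in CO and -3.75 to -3.38 in HFD (median -3.49). No HFD sample reached the lowest CO sample, and Kcnk2 was 2.43-fold lower (difference -1.28, SE 0.13, limma adjusted p = 8.42e-06). Kcnk6 was -0.61, -0.65, -0.82, -1.20 and -0.94 in CO and -1.98 to -1.30 in HFD (median -1.81), a difference of -0.91 (SE 0.13, limma adjusted p = 0.000104).

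Kcnk15 was -4.96, -4.34, -4.72, -4.79 and -4.44 in CO and -6.50 to -5.71 in HFD (median -5.84), and Kcnk16 was -4.48, -3.66, -4.45, -3.85 and -3.87 in CO and -5.21 to -4.89 in HFD (median -5.05). Both kept the groups apart, with differences of -1.27 (SE 0.15, limma adjusted p = 2.65e-05) and -0.98 (SE 0.15, limma adjusted p = 0.000125). Both calls were lost after normexp (-0.53 and -0.46). Kcnk1, Kcnk4, Kcnk5, Kcnk9, Kcnk12 and Kcnk13 were lower, by 0.31 to 1.09. Kcnk3 (TASK-1), Kcnk7 and Kcnk10 (TREK-2) were not called. After normexp 7 of the 13 were lower, against 24% of all genes, and with the striatal covariate also 7, against 31.7% of all genes.

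Over all 14 auxiliary subunits, 1 was higher, 9 were lower and 4 were not called (median difference -0.51), against 21.9% higher and 44.5% lower of all genes. After normexp 1 was higher and 5 were lower, against 17% and 24% of all genes. The cytoplasmic beta subunits of Kv1 channels (Kcnab) gave 2 lower and 1 not called. Kcnab2 was -3.19, -2.92, -3.02, -1.57 and -2.66 in CO and -4.10 to -3.64 in HFD (median -3.90), 2.32-fold lower (difference -1.21, SE 0.24, limma adjusted p = 0.000977). The CO samples spread widely (SD 0.64) and CO replicate 4 lay far above the others, but no HFD sample reached the CO range. Kcnab1 was lower and Kcnab3 was not called. Of the single-span Kcne subunits, Kcne3 (difference -0.99, SE 0.18, limma adjusted p = 0.000604) and Kcne1l were lower and Kcne2 and Kcne4 were not called. The call of Kcne3 was lost after normexp (-0.24).

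A further 3 members encode no channel subunit. Kcnq1ot1, a long noncoding RNA made from the paternal copy of the imprinted Kcnq1 region, was -2.53, -2.75, -2.18, -2.38 and -3.04 in CO and 0.12 to 0.68 in HFD (median 0.30). The HFD samples stood far above the CO samples, 7.53-fold higher (difference 2.91, SE 0.15, limma adjusted p = 9.22e-08), and the second probe gave 4.71 (SE 0.27). With spike-in scaling the difference was 2.24 and stayed past the threshold. Kcnmb4os1, an opposite-strand transcript at the Kcnmb4 gene, was well above background in all 5 CO samples and in none of the 6 HFD samples, so it passed the filter only through CO. It was at least 2.03-fold lower, which is a bound and a description only, since the filter favours such a probe, and after normexp it was not called (-0.10). Kcnrg, a regulator of channel assembly, was higher by 0.83 with overlap. Without these 3, 16 of 84 members were higher and 40 were lower, with a median of -0.28.

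For 29 members at least 1 more probe passed the filter. Of these 30 other probes, 7 were higher, 18 were lower and 5 were not called, and 23 had the sign of the brightest probe. Over all genes, 23.3% of other probes were higher and 45.9% lower. Where both probes were called, 16 of 17 had the same direction, Kcnq5 being the exception. Some of these other probes passed the filter mainly through CO, and among those well above background on all 11 arrays 11 of 12 had the same direction. In 21 of the 30, the other probe gave the more negative difference, with a median of -0.49 against -0.26 for the brightest probes of the same genes. That held for 15 of the 20 other probes well above background on all arrays. Second probes of Kcne4, Kcnh4 and Kcnj14 were not well above background on any HFD array, and their differences are bounds at most. Some members not called by the brightest probe were called by another. Besides Kcna5, Kcnc1 and Kcnj13, these included Kcnf1 (-0.31), Kcnn3 (0.25) and Kcnh6 (-1.58, well above background on 1 HFD array). Spots well above background made up 82.5 to 85.7% of each CO array and 71.8 to 77.4% of each HFD array, and the part of this gap in these differences was not tested.

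**Figure D3:**
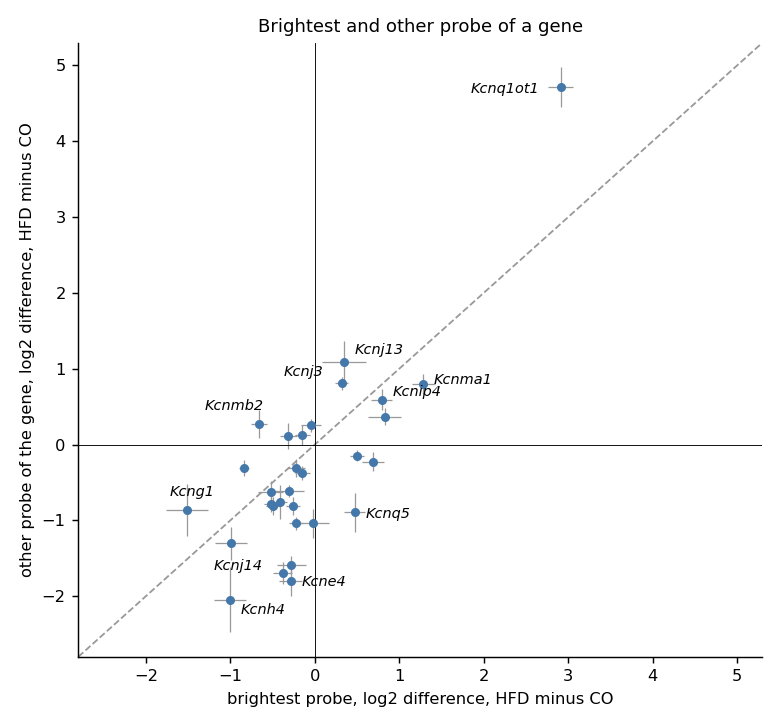
Each point sets the log2 difference, HFD minus CO, of another probe of a member (vertical) against that of its brightest probe (horizontal), with standard errors, for 30 probes of 29 genes; the dashed line marks equality. Most points lie below the line, 21 of 30, and Kcnq5 lies in the quadrant of opposite signs with both probes called.

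Other genes of potassium transport were counted from a list of 35, of which 33 were tested. Of these, 11 were higher (33.3%, against 21.9% of all genes), 12 were lower (36.4%, against 44.5%) and 10 were not called. The median difference was -0.02, against -0.18 over all genes. The 12 include Lrrc26, which passed the filter only through CO. The pump that restores potassium gave 2 higher, 3 lower and 3 not called of 8. Of the axonal complex that holds Kv1 channels in place, 4 of 10 were higher and 3 were lower. Cntnap2 (Caspr2), which gathers Kv1 channels beside the node of Ranvier, was higher by 1.11 (SE 0.11), and the scaffold Dlg2 (PSD-93) was lower by 1.01 (SE 0.09). The limma adjusted p was 4.88e-06 for Cntnap2 and 3.43e-06 for Dlg2.

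Markers of other tissue moved with some members, and in whole tissue fewer cells of a type and less RNA per cell cannot be told apart. All 15 hypothalamic markers passed the filter, 3 higher, none lower and 12 not called, with a median difference of 0.13. Sim1, among the 3, was not well above background on any CO array and passed only through HFD. Its values enter the list mean and widen the gap between the groups in that mean. The mean log2 deviation of the hypothalamic list was -0.27 to -0.09 in CO, 0.18 to 0.46 in 5 HFD samples and -0.53 in HFD replicate 1. That sample was also lowest of all on the choroid plexus list (-1.23) and the list of cortex and hippocampus (-1.38) and highest on the pituitary list (1.01). Of 12 striatal markers, none was higher, 9 were lower and 3 were not called (median -1.21). Their mean log2 deviation was 1.23, 1.53, 0.03, -0.63 and 1.00 in the CO samples and -1.33 to 0.10 in the HFD samples, so that CO replicates 3 and 4 lay near the HFD samples. Oligodendrocyte markers were lower in 7 of 10, neuronal markers were higher in 5 of 8 and thalamic markers were higher in 6 of 10, with none, none and 1 in the other direction. Over all genes, 21.9% were higher and 44.5% were lower.

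Kcnj4 (Kir2.3), singled out after its values were seen, followed the striatal list sample by sample. It was 2.89, 2.82, 2.06, 1.16 and 2.84 in CO and -0.31, 0.59, 0.22, 0.90, 0.99 and 1.52 in HFD. The lowest CO sample was replicate 4 and the highest HFD sample replicate 6, as on the striatal list, and the groups overlapped (difference -1.70, SE 0.37). With the striatal list as a covariate the difference of Kcnj4 was -0.54 (limma adjusted p = 0.0346), that of Kcnh3 -0.67 (adjusted p = 0.0664), that of Kcnip2 -0.87 (0.00715) and that of Kcng1 -0.79 (0.00356). Kcns1 stood at -1.46, Kcnk2 at -0.90 and Kcnma1 at 1.04 in that fit, all past the threshold. Kcnk2 too moved with the list within groups (correlation 0.957 in CO and 0.798 in HFD). Kcnh4 stood at -0.48 and Kcna2 at 0.33, both still called, while the calls of Kcna3 (0.08) and Kcnab1 (-0.18) were among those lost. Over the members, 12 were then higher and 29 lower, against 48.7% of all genes called in either direction, and no GIRK subunit was called.

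**Figure D4:**
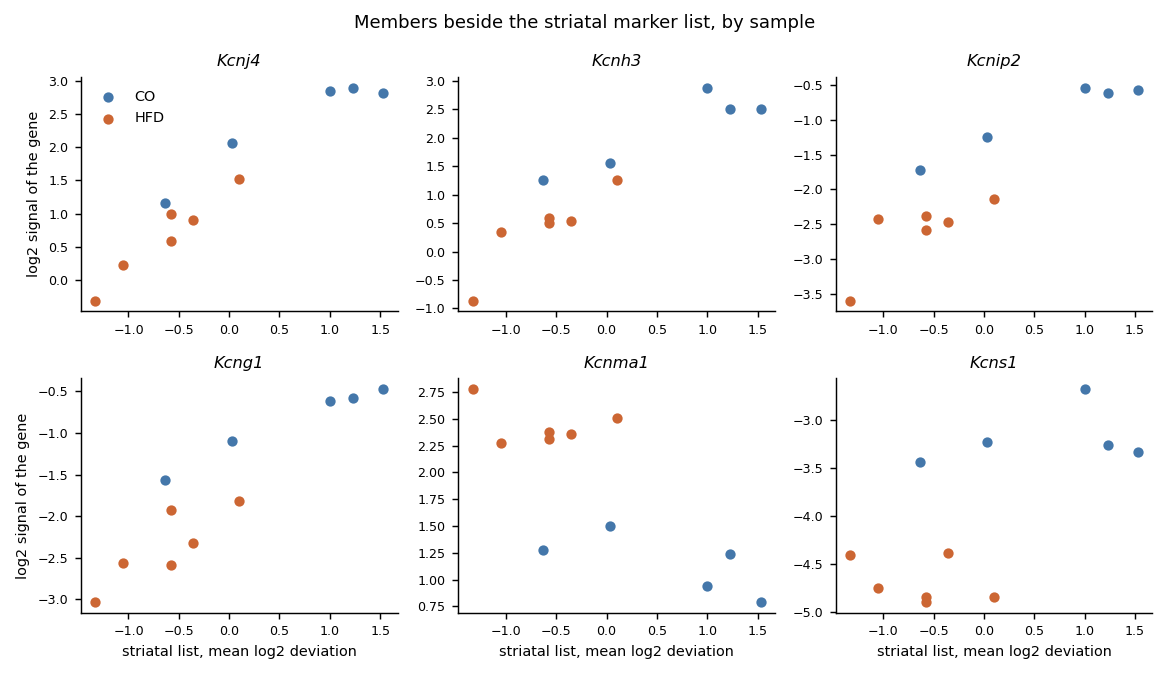
Log2 signal of 6 members (vertical) against the mean log2 deviation of the 12 striatal markers (horizontal), 1 point a sample, CO (n = 5) and HFD (n = 6). The signals of Kcnj4, Kcnh3, Kcnip2 and Kcng1 tended to be high where the list was high within both groups, while Kcnma1 and Kcns1 stood apart between the groups at like values of the list.

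Of the other genes on the array, 7 did not pass the filter, Kcne1, Kcng3, Kcnj1, Kcnk18, Kcnn1 and Kcnv2 among them, and none of the 7 was well above background on any HFD array. Of the 87 that passed, 82 were well above background on all arrays, Kcnf1 on all 10 where it was measured, and among the 82, 18 were higher and 38 were lower. Of the 40 members chosen for full description, 13 kept direction and side of the threshold under every one of the 23 alternative settings.

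**Figure D5:**
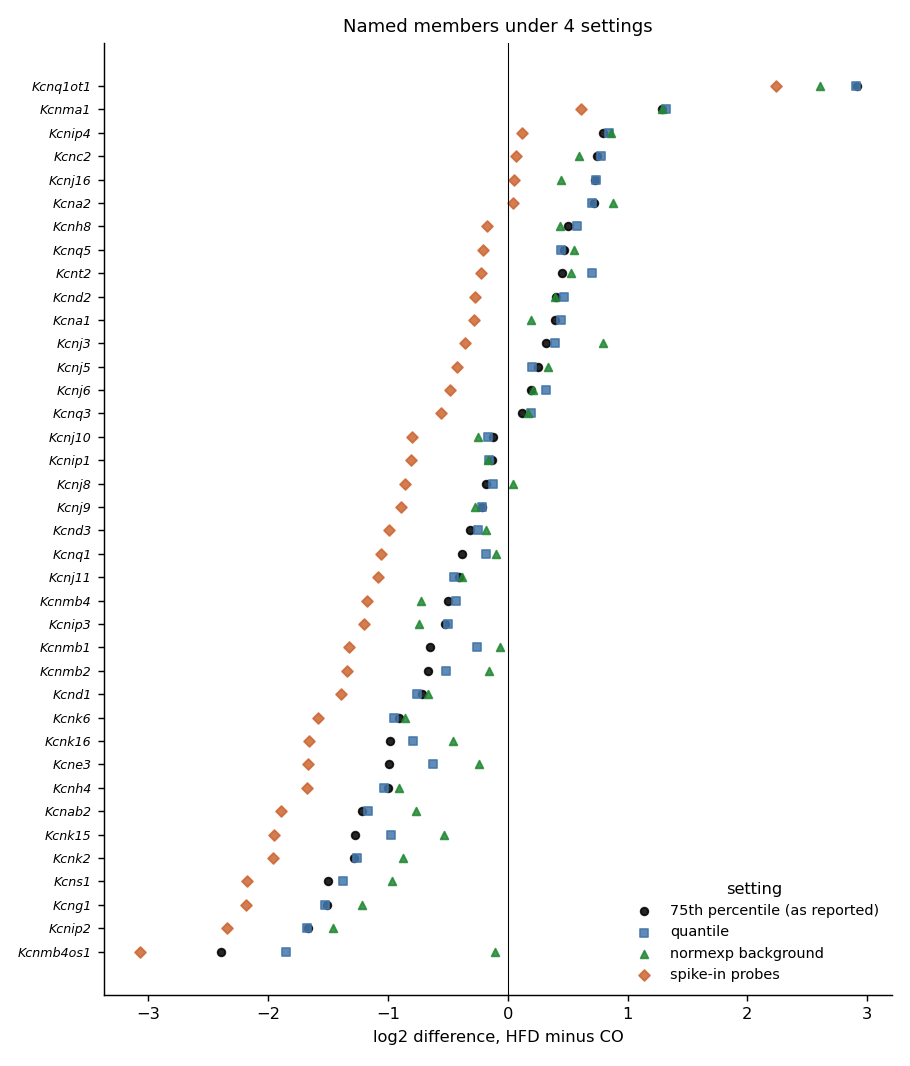
Log2 difference, HFD minus CO, of the members described here (rows) under the reported scaling to the 75th percentile, quantile normalization, normexp background correction and scaling to spike-in probes. Spike-in scaling moved every member shown to the left, turning 9 of them from above to below 0, and normexp brought the differences of dim members such as Kcne3 and Kcnk15 closer to 0; Kcnmb4os1, at background in HFD, has only a bound.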

How the data were processed

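Hypothalamic RNA of 5 CO and 6 HFD samples was hybridised to Agilent mouse arrays with a single dye. The deposited files hold intensity values that the authors made with Feature Extraction software, background already subtracted (version 10.8 in the submitters' notes). How the authors normalized between arrays was not given in the sources used here. In this work, log2 of the processed signal minus the 75th percentile of each array was used. Control spots and spots marked as outliers were dropped, and repeat spots of a probe averaged.

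Accessions of 26369 of 39429 mouse probes matched 19987 genes in a GRCm38.p6 gene table. Probes well above background on at least 5 arrays were kept (31790), and each gene was represented by its brightest probe. The test was limma 3.58.1 (lmFit, eBayes, two-sided, R 4.3.3), Benjamini-Hochberg adjusted over 17188 genes, and called under 0.05. Other probes came from a fit over all probes kept. The estimate is HFD minus CO. For a probe at background on all arrays of 1 group, the fold is a lower bound, set by the brighter group's mean against the higher of 2 signals per array: the probe's own and the lowest that counted as well above background. Levels of different probes were not compared, except to pick the brightest probe and to sort genes by signal. The fit was tested on simulated data. The number of arrays limits the precision, and no mouse spot was saturated. Array correlations were 0.989 to 0.997 within groups and 0.954 to 0.973 between them.

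Members described in full were the 10 largest increases and 10 largest decreases among those called, on all 11 arrays and without overlap, the Kir6, GIRK, Kcnq, BK, Kv4 and KChIP groups with Kcna1, Kcna2, Kcnab2 and Kcnj10, members with probes called in opposite directions, and members at background in a whole group. From the partner list, Abcc8, Abcc9, Dpp6, Dpp10 and the 4 others with the smallest adjusted p were named. Some genes that the rule names are not reported here. Values outside this rule were added after they were seen. The members, partner list and 11 marker lists were chosen with earlier results of these data known. Alternatives were other scalings, background correction (normexp with an offset of 50 on spot medians, added after seeing that the files hold no spot means), filters, probe averaging, blocks, a striatal covariate, array weights and leaving out each array. Marker lists not given above gave, higher and lower, 3 and 5 of 10 (microglia), 5 and 3 of 8 (endothelium and pericytes), 0 and 2 of 6 (choroid plexus), 1 and 4 of 10 (cortex and hippocampus) and 1 and 1 of 4 (pituitary).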

Additional observations from a re-analysis of the deposited data

Results flagged for a closer look

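In 80 groups of 5 or 6 samples, from the 40 members described in full, 7 had a highest or lowest sample set far apart from the rest for the spread of its group, measured against a limit that chance passes in about 1 of 20 groups. Log2 signals are given relative to the 75th percentile of the array.

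HFD replicate 1 was the low sample of Kcnip2, at -3.60 against -2.58 for its nearest neighbour, and the high sample of Kcnj9, at 0.61 against 0.21. The same sample had the lowest values of the striatal (-1.33), hypothalamic (-0.53), choroid plexus (-1.23) and cortex and hippocampus (-1.38) lists and the highest of the pituitary list (1.01). HFD replicate 2 was low for Kcnj8 (-3.75 against -3.58), HFD replicate 3 high for Kcnk6 (-1.30 against -1.78) and HFD replicate 6 low for Kcnk15 (-6.50 against -5.89). CO replicate 5 was high for Kcns1 (-2.68 against -3.23) and CO replicate 4 high for Kcnip1 (-0.35 against -0.52). Without HFD replicate 1, Kcnj9 (-0.30) and Kcnip1 (-0.17) passed the threshold as lower.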

How the results depend on the processing

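With scaling to spike-in probes, 2 members were higher and 74 lower, 1 partner gene was higher and 26 lower, and the median of members was -0.95. Over all genes, 5.48% were higher and 83.9% lower on that scale. That scaling turned Kcna1 (-0.29), Kcnd2 (-0.27), Kcnh8 (-0.18), Kcnj3 (-0.36), Kcnj5 (-0.42), Kcnj6 (-0.48), Kcnq3 (-0.56), Kcnq5 (-0.21) and Kcnt2 (-0.23), which follows from a constant shift of 0.676, and averaging the probes of a gene turned Kcnq5 (-0.21), whose 2 probes disagree. Normexp left 25 members lower (28.7%, against 24% of all genes) with a median of -0.18. The median was -0.22 with quantile normalization and -0.21 with scaling to the median, and the cause of these changes was not tested. A difference of at least 2-fold left 2 higher and 12 lower, Kcnmb4os1 among the 12, against 5.54% and 10.1% of all genes. An adjusted p under 0.001 left 8 higher and 20 lower, and the share of all genes under that limit was not counted. Leaving out each array in turn gave 16 to 18 members higher and 39 to 43 lower, with medians of -0.30 to -0.24. Over all genes these fits called 20.5 to 21.9% higher and 41.4 to 44.7% lower. They gave 10 to 11 partner genes higher and 11 to 12 lower. With the striatal list as a covariate, 12 members were higher and 29 lower (13.8% and 33.3%, against 17% and 31.7% of all genes). Unlisted settings (filters, probe averaging, blocks, array weights) gave counts of members within 1.5 times those reported.

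Replicate numbers in the labels did not pair the samples: deviations of same-numbered samples correlated at 0.179, -0.032, -0.104, 0.025 and 0.172. The fit with the replicate number as a block, on 10 samples, gave 18 members higher and 39 lower, against 20.1% and 41.8% of all genes. The median of members in that fit was -0.26, and it changed no call of a named member. The design's normexp on spot means was not run, since the files hold spot medians. Signal over background limits the dim members most: 4 of 87 were not well above background on every array that measured them, and Kcnmb4os1 had no value under the filter on all 11 arrays.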
